A study of Mus musculus with 10 samples.

Results

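A set of 7 genes of cholesterol synthesis, chosen by name, is described here in mouse liver after activation of the death receptor CD95. They are Srebf2, Insig1, Hmgcs1, Idi1, Sqle, Lss and Cyp51, 7 of the 38922 genes in the files, and all 7 passed the filter on low counts, which left 13719 genes to test. Male C57BL/6N wild-type mice, 6 weeks old, received an intraperitoneal injection of CD95-activating antibody (CD95-Ab) at 0.5 µg per g of body weight, or of saline. Livers were taken 6 h later from 5 saline-injected and 5 CD95-Ab-injected mice, and RNA of whole liver was sequenced. CD95-Ab drives hepatocytes into apoptosis and serves as a model of acute liver failure with hemorrhage.

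Hepatocytes build cholesterol from acetyl-CoA through the mevalonate pathway. Hmgcs1 encodes the cytosolic synthase that makes HMG-CoA, Idi1 the isomerase that interconverts the isoprenoid building blocks, Sqle the epoxidase that oxidizes squalene, Lss the cyclase that folds the product into lanosterol, and Cyp51 the demethylase that acts on lanosterol. Srebf2 encodes SREBP2, a transcription factor held in the endoplasmic reticulum together with the sterol sensor SCAP. When sterols are low, the complex moves to the Golgi, proteases release the active part of SREBP2, and genes of the pathway are transcribed. Insig1 encodes a protein that retains the complex when sterols are high, and it is itself a target of SREBPs, as is Srebf2.

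The factors known to act on these genes read short sequences near the start of transcription. SREBPs bind sterol regulatory elements, usually beside sites for NF-Y, which reads CCAAT, and Sp1, which reads GC boxes. The promoters are therefore shown before the values. RefSeq sequences (GRCm38.p6) were given for 6 of the 7 genes, as windows of 300 bases that run from 250 before the RefSeq start to 50 after it. For Sqle no sequence is shown. The promoters of Hmgcs1, Srebf2 and Insig1 are printed whole, since the first is the enzyme with the largest fold change and the others are the regulators. Hmgcs1 is at chr13:119690101-119690400 (plus strand), Srebf2 at chr15:82147019-82147318 (plus strand) and Insig1 at chr5:28071162-28071461 (plus strand). Capitals mark CCAAT on either strand (ATTGG where it lies on the other strand), the element TCACNCCA with or without a last C, and the E-box CACGTG.
Hmgcs1: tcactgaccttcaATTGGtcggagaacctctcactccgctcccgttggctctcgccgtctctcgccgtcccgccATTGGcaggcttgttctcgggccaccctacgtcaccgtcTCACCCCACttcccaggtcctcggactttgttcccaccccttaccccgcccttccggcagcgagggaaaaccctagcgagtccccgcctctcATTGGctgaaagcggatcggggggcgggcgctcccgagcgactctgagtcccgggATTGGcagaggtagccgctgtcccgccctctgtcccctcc
Srebf2: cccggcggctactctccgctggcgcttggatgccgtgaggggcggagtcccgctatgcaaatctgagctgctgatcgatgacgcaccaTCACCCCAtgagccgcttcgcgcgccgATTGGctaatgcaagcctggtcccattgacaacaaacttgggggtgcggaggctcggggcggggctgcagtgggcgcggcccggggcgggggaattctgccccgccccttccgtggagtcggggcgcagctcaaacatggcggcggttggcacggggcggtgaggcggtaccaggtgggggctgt
Insig1: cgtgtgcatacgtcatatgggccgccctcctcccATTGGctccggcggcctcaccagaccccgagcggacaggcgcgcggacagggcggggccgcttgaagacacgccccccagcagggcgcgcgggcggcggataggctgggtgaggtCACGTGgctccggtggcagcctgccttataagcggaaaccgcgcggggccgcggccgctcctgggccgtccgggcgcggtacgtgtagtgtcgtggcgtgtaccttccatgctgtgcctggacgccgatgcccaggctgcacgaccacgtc

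For the other enzymes only the stretch around CCAAT is shown. The stretch of Cyp51 is at chr5:4104697-4104751 (minus strand, printed 5′ to 3′ along the gene), that of Idi1 at chr13:8885536-8885621 (plus strand) and that of Lss at chr10:76531518-76531572 (plus strand).
Cyp51: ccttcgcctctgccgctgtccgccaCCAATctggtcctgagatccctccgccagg
Idi1: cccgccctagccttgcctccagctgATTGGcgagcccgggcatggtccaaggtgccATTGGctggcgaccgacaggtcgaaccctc
Lss: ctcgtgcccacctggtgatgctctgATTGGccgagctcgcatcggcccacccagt

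All 6 promoters held at least 1 CCAAT, against 37.4% of the 32851 promoters in the RefSeq table, and all 6 held at least 1 GC box, searched as GGGCGG, against 35.7%. Hmgcs1 had 4 CCAAT and Idi1 had 2, and the other 4 genes had 1 each. GC boxes were most numerous in Srebf2, with 5. The element TCACNCCAC was found in 1 of 6, Hmgcs1, at bases 114 to 122 of the window, and in 1.24% of all promoters. Without its last base, a search added after the promoters had been read, it was found in Hmgcs1 and in Srebf2 (bases 89 to 96), 2 of 6 against 4.36%. CACGTG was found in Insig1 alone of the 6, at bases 150 to 155, against 7.15% of all promoters, and the cAMP response element TGACGTCA in 0 of 6, against 1.79%. Both strands were searched, and TCACNCCA is contained in TCACNCCAC. These matches describe letters in a fixed window and say nothing of binding. The windows rest on RefSeq starts, which can lie apart from the starts in the GENCODE annotation used for the gene positions.

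The files held 25965699 to 62097636 counts per saline mouse and 27480796 to 44962196 per CD95-Ab mouse. Values are given as counts per 1000000 (CPM), scaled with TMM factors so that libraries of different depth and composition can be compared. Genes were called at a false discovery rate (FDR) of 0.05 or less in edgeR's quasi-likelihood test, adjusted over all 13719 genes. All 10 of the hepatocyte markers checked were detected and summed to 119130 to 142256 CPM in saline livers and 58236 to 99599 CPM in CD95-Ab livers. Alb alone made up most of these sums, with means of 84727 CPM in saline and 41434 CPM in CD95-Ab livers. In whole tissue, fewer cells of a type and less RNA per cell cannot be told apart.

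Expression of all 7 genes was higher in CD95-Ab livers than in saline livers. The fold changes ran from 1.67 for Srebf2 to 3.45 for Hmgcs1, and all 7 were called higher, where 25.4% of all tested genes were called higher and 47.3% were called in either direction. None of the 7 reached a log2 fold change of 2, a limit passed upward by 6.59% of tested genes. Their median log2 fold change was 1.26, against 0.01 over all tested genes. The 7 genes were chosen with earlier results of these data known, so these contrasts are not independent evidence about the pathway. In 0 of the 7 did the groups separate completely, whereas 33.3% of all tested genes had groups that did not overlap. In 18.6% all CD95-Ab mice lay above all saline mice and in 14.7% below. The plot of CPM by mouse shows this overlap, which comes from the highest saline mice and the lowest CD95-Ab mice.

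**Figure D1:**
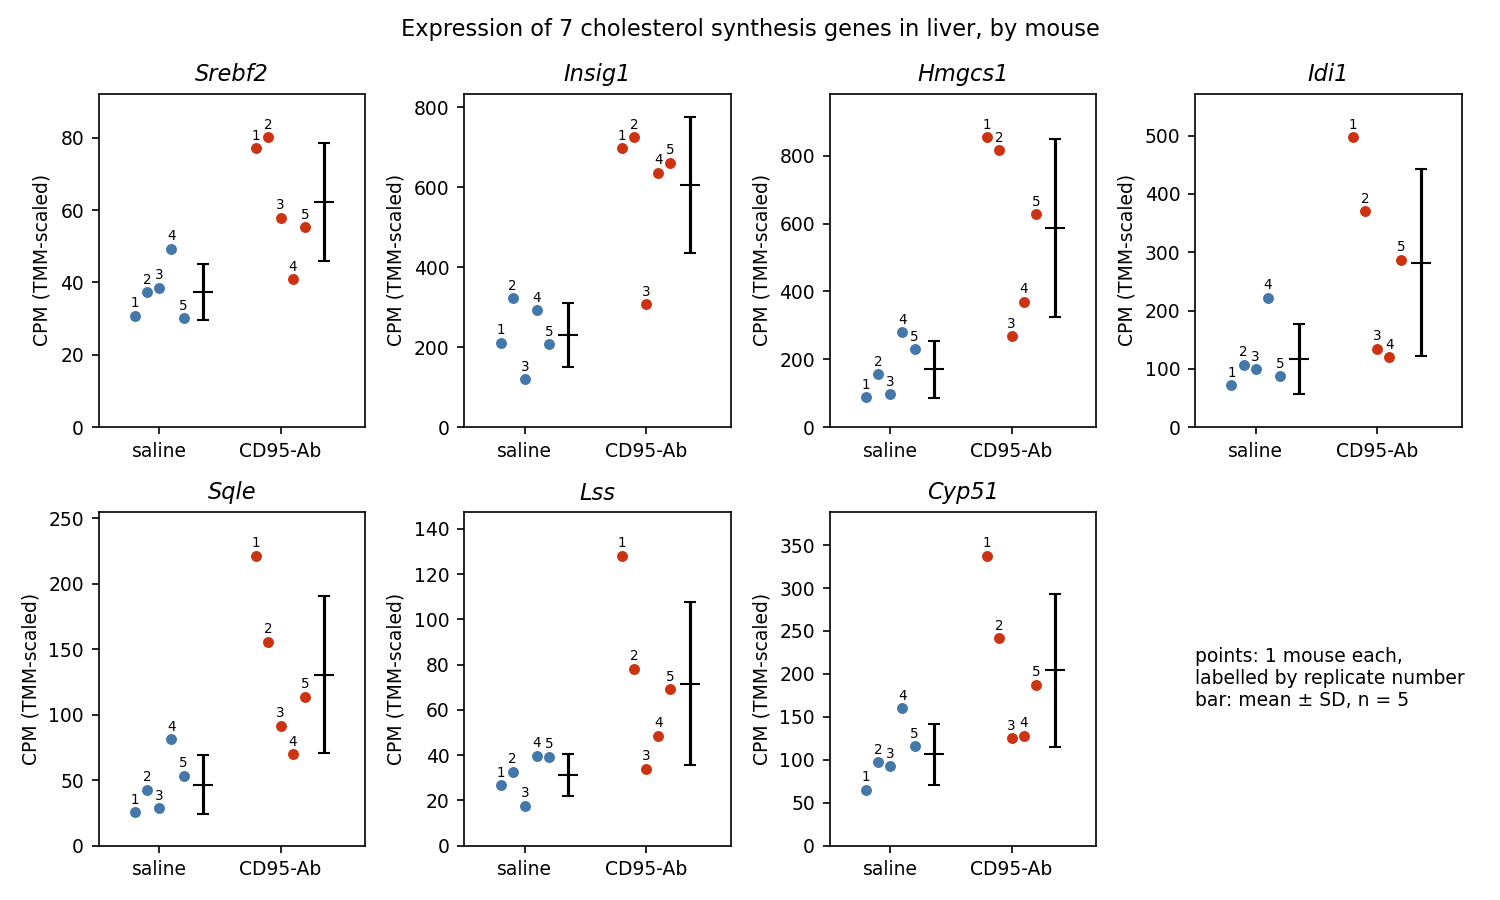
CPM (linear axis from 0) of each of the 7 genes in each mouse, 1 point per mouse labelled with its replicate number, with the mean ± SD of 5 mice beside each group. CD95-Ab means lie above saline means in all 7 panels, and in each panel at least 1 CD95-Ab mouse lies below the highest saline mouse.

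Of the regulators, Srebf2 (ENSMUSG00000022463, chr15:82147181-82205379, GRCm38) had the smallest fold change of the 7 and the smallest spread among saline mice. Saline replicates 1 to 5 had 30.8, 37.4, 38.6, 49.3 and 30.2 CPM, and CD95-Ab replicates 1 to 5 had 77.1, 80.2, 57.9, 40.9 and 55.3 CPM. In 4 of 5 CD95-Ab mice the value was above every saline mouse, and CD95-Ab 4 lay below saline 4. The mean was 37.3 ± 7.72 CPM (SD, n = 5) in saline livers and 62.3 ± 16.3 CPM (SD, n = 5) in CD95-Ab livers. The log2 fold change was 0.74 (SE 0.20, edgeR FDR 0.00885), and an exact permutation test over mice, two-sided, gave p = 0.0159. The smallest p that this test can give with 5 against 5 mice is 0.00794. On the deposited FPKM values, tested with limma, the log2 fold change was 0.63 with an FDR of 0.0638, so that call was lost.

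Insig1 (ENSMUSG00000045294, chr5:28071363-28078662), which encodes the retention factor, had the lowest FDR of the 7. Its values were 211, 323, 119, 292 and 207 CPM in saline replicates 1 to 5, and 698, 725, 307, 636 and 661 CPM in CD95-Ab replicates 1 to 5. CD95-Ab 3 stood far below the other 4 mice of its group and below saline 2, and those 4 lay between 636 and 725 CPM. Means were 230 ± 79.9 CPM and 605 ± 170 CPM (SD, n = 5 each), a 2.63-fold difference (log2 1.39, SE 0.29, edgeR FDR 0.00196). The exact permutation p was 0.0159. Insig1 kept its call in every setting and without any single mouse.

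At the entry of the pathway, Hmgcs1 (ENSMUSG00000093930, chr13:119690379-119708260) had the largest fold change. Saline livers had 87.8, 157, 96.9, 279 and 230 CPM and CD95-Ab livers 855, 817, 268, 370 and 627 CPM, in replicate order. The saline values spread widely, with replicates 4 and 5 above the others, and CD95-Ab 3 lay just below saline 4. Means of 170 ± 83.3 CPM and 588 ± 262 CPM (SD, n = 5 each) gave a log2 fold change of 1.79 (SE 0.40, edgeR FDR 0.00301), and the exact permutation p was 0.0159. Without any single mouse the log2 fold change stayed between 1.61 and 2.01.

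Idi1 (ENSMUSG00000058258, chr13:8885501-8892451), the isomerase, had the highest FDR of the 7. Its saline values were 71.8, 107, 99.1, 222 and 87.4 CPM, and its CD95-Ab values 498, 371, 135, 120 and 287 CPM. Saline 4 was above both CD95-Ab 3 and CD95-Ab 4, so 3 of 5 CD95-Ab mice exceeded every saline mouse. Means were 118 ± 60.0 CPM and 282 ± 160 CPM (SD, n = 5 each). The log2 fold change of 1.26 (SE 0.42) had an edgeR FDR of 0.0262 and an exact permutation p of 0.0476. Its FDR rose above 0.05 when saline 1, 2, 3 or 5 or CD95-Ab 1 or 2 was left out, with a log2 fold change as low as 0.96 without CD95-Ab 1. On deposited FPKM it was 1.10 (limma FDR 0.0751).

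Sqle (ENSMUSG00000022351, chr15:59315077-59331192), the squalene epoxidase, had the second largest fold change among the enzymes. Saline mice had 25.7, 42.9, 28.7, 81.3 and 53.5 CPM and CD95-Ab mice 222, 156, 91.7, 70.0 and 114 CPM. CD95-Ab 4 was the one CD95-Ab mouse below the highest saline mouse, which again was saline 4. Means of 46.4 ± 22.5 CPM and 131 ± 60.0 CPM (SD, n = 5 each) gave a log2 fold change of 1.49 (SE 0.36, edgeR FDR 0.00539), with an exact permutation p of 0.0159.

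Lss (ENSMUSG00000033105, chr10:76531588-76557138), the lanosterol synthase, had 26.7, 32.8, 17.7, 39.8 and 39.3 CPM in saline mice and 128, 78.2, 34.0, 48.7 and 69.2 CPM in CD95-Ab mice. CD95-Ab 1 stood well above the rest, and CD95-Ab 3 fell inside the saline range. Means were 31.2 ± 9.30 CPM and 71.7 ± 36.1 CPM (SD, n = 5 each), with a log2 fold change of 1.20 (SE 0.33, edgeR FDR 0.0105) and an exact permutation p of 0.0238. An antisense gene, 4930483K19Rik, overlaps Lss, and it had 0.0619 CPM in saline livers and 0.439 CPM in CD95-Ab livers. On deposited FPKM the log2 fold change of Lss was 0.99 with a limma FDR of 0.0651.

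Cyp51 (ENSMUSG00000001467, chr5:4081145-4104746, minus strand), the lanosterol demethylase, had the smallest fold change among the 5 enzymes. Its values were 65.1, 97.3, 92.7, 160 and 116 CPM in saline mice and 338, 242, 125, 128 and 187 CPM in CD95-Ab mice. Here too saline 4 was above CD95-Ab 3 and CD95-Ab 4. Means of 106 ± 35.2 CPM and 204 ± 88.9 CPM (SD, n = 5 each) gave a log2 fold change of 0.94 (SE 0.30, edgeR FDR 0.0227), with an exact permutation p of 0.0317. The FDR rose above 0.05 without saline 1, saline 3, CD95-Ab 1 or CD95-Ab 2, and the log2 fold change was 0.68 without CD95-Ab 1. On deposited FPKM it was 0.81 (limma FDR 0.0696). Cyp51 overlaps Akap9 on the other strand by 166 bases, and Akap9 had 32.5 CPM in saline and 28.2 CPM in CD95-Ab livers.

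The fold changes of the 7 genes kept their direction in all 12 other settings and in all 10 fits that left out 1 mouse, as the plot of settings shows. Hmgcs1, Sqle and Insig1 kept their calls in all of these, the stricter FDR of 0.01 included. Leaving out 1 mouse at a time left 5 to 7 of the 7 genes called.

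**Figure D2:**
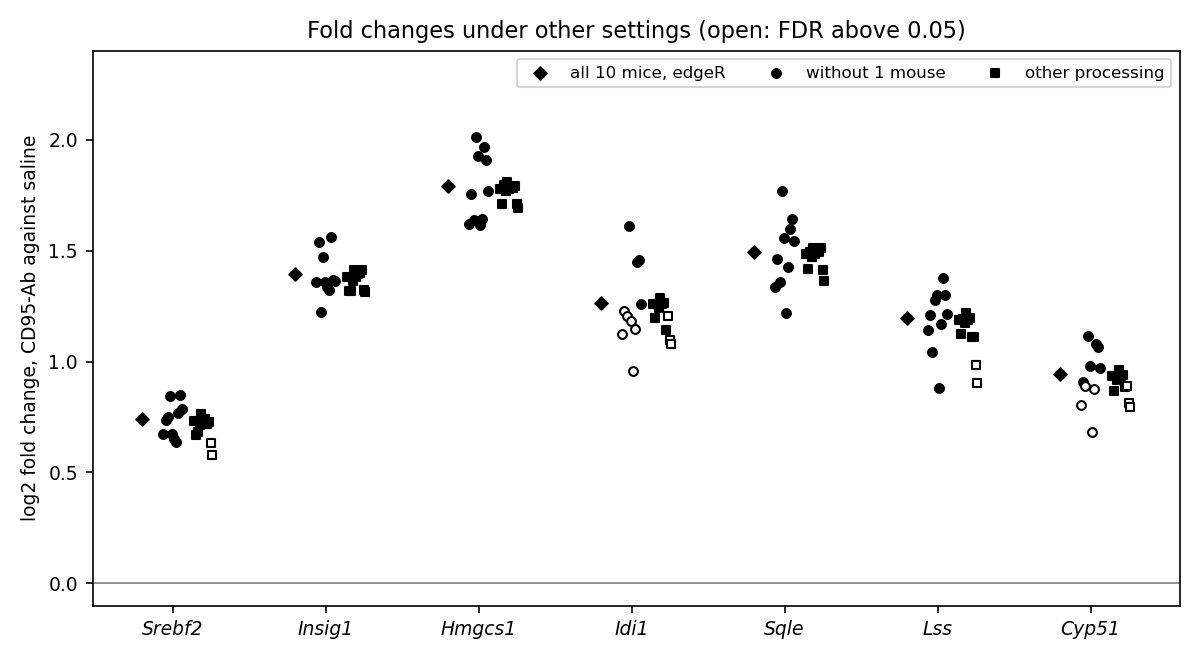
Log2 fold change (CD95-Ab against saline) of the 7 genes with all 10 mice in edgeR (diamonds), without 1 mouse (circles) and under other processing with the same threshold (squares), filled where the FDR was 0.05 or less. All points lie above 0, and the open points belong to Srebf2, Idi1, Lss and Cyp51.

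The same mice were high or low in most of the 7 genes. Saline 4 was the highest of its group in 6 of the 7, and saline 1 the lowest in 4. CD95-Ab 1 was the highest of its group in 5 of the 7 and CD95-Ab 2 in the other two, while CD95-Ab 3 was the lowest in 4 and CD95-Ab 4 in 3. Averaged over the 7 genes, CD95-Ab 1 stood at 1.64 times and CD95-Ab 2 at 1.34 times the geometric mean of its group. CD95-Ab 5 stood at 1.05 times, CD95-Ab 4 at 0.691 times and CD95-Ab 3 at 0.624 times that mean. In the saline group the range was from 0.726 times in saline 1 to 1.60 times in saline 4. The plot of deviations also shows mice in which the genes parted, such as saline 5, where Hmgcs1 lay above its group mean and Idi1 below.

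**Figure D3:**
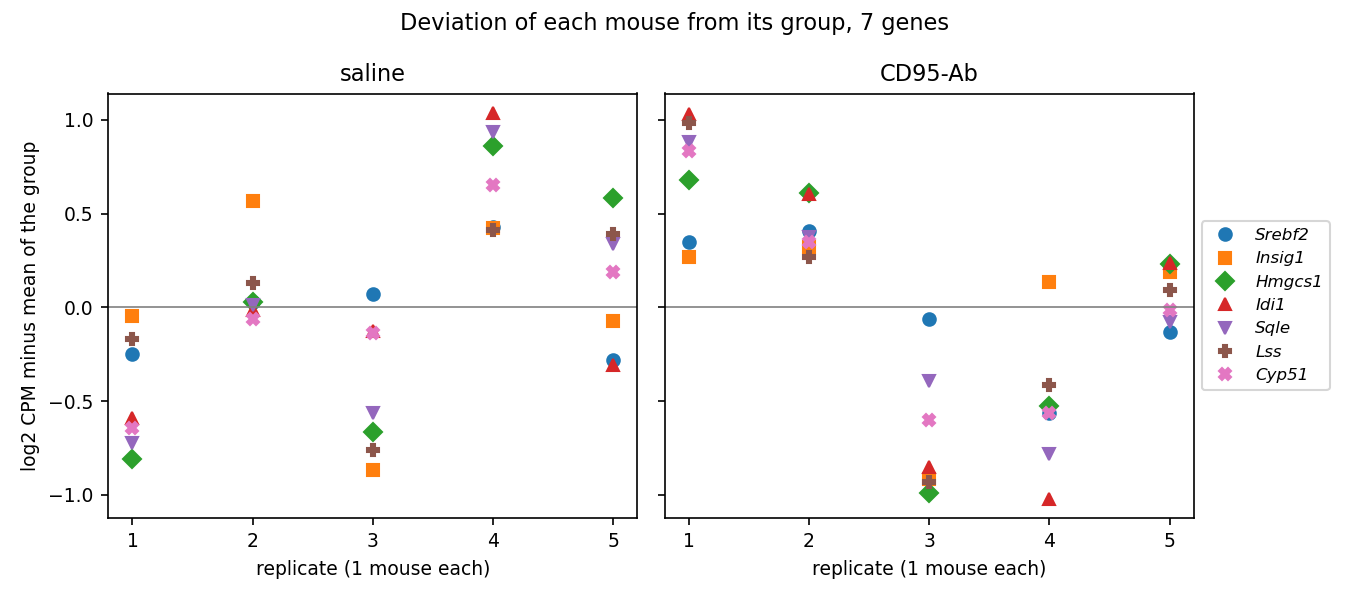
Log2 CPM of each of the 7 genes in each mouse, minus the mean of its group (log2 scale), for saline mice on the left and CD95-Ab mice on the right. CD95-Ab 1 and 2 lie above 0 in all 7 genes, CD95-Ab 3 lies below 0 in all 7, and saline 4 lies above 0 in all 7.

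Markers of other cells and of RNA quality are given beside these values, by group and for the CD95-Ab mice. Erythrocyte markers, 5 of 5 called higher and led by the beta-globin gene Hbb-bs, summed to 135 to 323 CPM in saline livers. In CD95-Ab replicates 1 to 5 their sum was 1064, 7054, 33994, 20663 and 5354 CPM. CD95-Ab 1, highest in 5 of the 7 cholesterol genes, had the lowest erythrocyte sum, and CD95-Ab 3 and 4, lowest in all 7 between them, had the highest. CD95-Ab 2 and 5 did not follow this order. CD95-Ab 2, at 1.34 times the group's geometric mean over the 7 genes, had a higher erythrocyte sum than CD95-Ab 5, at 1.05 times. Without CD95-Ab 3 the log2 fold changes of Hmgcs1 and Idi1 were 1.97 and 1.45, and without CD95-Ab 4 they were 1.91 and 1.46. Neutrophil markers, led by S100a9, were called higher in 7 of 7 tested (1 more, Ly6g, was below the filter), with sums of 4.31 to 11 CPM in saline and 113 to 447 CPM in CD95-Ab livers. Endothelial markers, led by Lyve1, were called higher in 6 of 7 (48.6 to 123 against 157 to 289 CPM). Lyve1 led only in CD95-Ab livers, with means of 6.72 CPM in saline and 71.7 CPM in CD95-Ab livers. Stab2, highest in saline livers, went from 22.5 to 41.2 CPM, and Kdr was not called. Kupffer cell markers, led by Cd5l, were called higher in 2 of 8, near the 25.4% of all tested genes, and 6 of 8 were not called (150 to 508 against 283 to 667 CPM). Hepatocyte markers were called lower in 5 of 10 and higher in 0, where 22.0% of tested genes were called lower, and Alb, the most abundant, fell by 1.03 on the log2 scale. The other 5 were not called. Among them was Trf, the next most abundant, with means of 14401 CPM in saline and 14604 CPM in CD95-Ab livers. RNAs without a poly(A) tail, listed as markers of RNA quality and led by Rn7sk, were called higher in 5 of 5 tested. Of these, Rn7s1 and Rn7s2 had the same means and SDs in both groups, so the 5 calls are not 5 separate measures. Rmrp was below the filter, and Rny1 and Rny3 held 0 counts in every mouse. Sums of the whole list were 1.72 to 4.13 CPM in saline and 377 to 1340 CPM in CD95-Ab livers. Every CD95-Ab mouse lay above every saline mouse in this sum, so RNA quality and treatment cannot be told apart here. CD95-Ab 1 also had the lowest neutrophil (113 CPM), endothelial (157 CPM) and non-poly(A) (377 CPM) sums of its group. The highest neutrophil (447 CPM) and endothelial (289 CPM) sums were in CD95-Ab 3, and the highest non-poly(A) sum (1340 CPM) in CD95-Ab 4. The hepatocyte sum was highest in CD95-Ab 3 (99599 CPM) and stood at 79719 CPM in CD95-Ab 1. The Kupffer cell sum was highest in CD95-Ab 2 (667 CPM), stood at 567 CPM in CD95-Ab 1 and was lowest in CD95-Ab 4 (283 CPM). The part of these differences in the values of the 7 genes was not tested.

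Levels of different genes were compared per length, on the deposited FPKM values (fragments scaled to transcript length and library size). In saline livers Insig1 was the most abundant, at 91.0 ± 36.1 FPKM, followed by Hmgcs1 at 54.0 ± 23.8, Idi1 at 40.8 ± 20.2 and Cyp51 at 27.9 ± 8.28 FPKM (SD, n = 5). Sqle stood at 17.3 ± 7.80, Srebf2 at 7.82 ± 1.76 and Lss at 6.91 ± 2.33 FPKM. The order in CD95-Ab livers was the same for the first 5 genes, with means of 227 ± 77.3 for Insig1, 187 ± 99.0 for Hmgcs1, 98.6 ± 65.1 for Idi1, 53.4 ± 29.3 for Cyp51 and 48.8 ± 27.9 FPKM for Sqle. Lss (15.5 ± 10.4 FPKM) then stood above Srebf2 (12.5 ± 4.38 FPKM), in 3 of 5 mice. Ranges of neighbors in this order overlapped over mice, except for Sqle and Srebf2 in saline livers. Since all 7 genes were measured in the same mice, neighbors were also compared within each mouse, and in 6 of 12 neighbor pairs over both groups the first gene was above the next in 5 of 5 mice. Insig1 exceeded Hmgcs1 in 5 of 5 saline mice and 4 of 5 CD95-Ab mice, and Idi1 exceeded Cyp51 in 4 of 5 and 5 of 5. Among all genes in the files, ranked by mean FPKM, Insig1 went from rank 726 to 293 and Hmgcs1 from rank 1087 to 357.

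**Figure D4:**
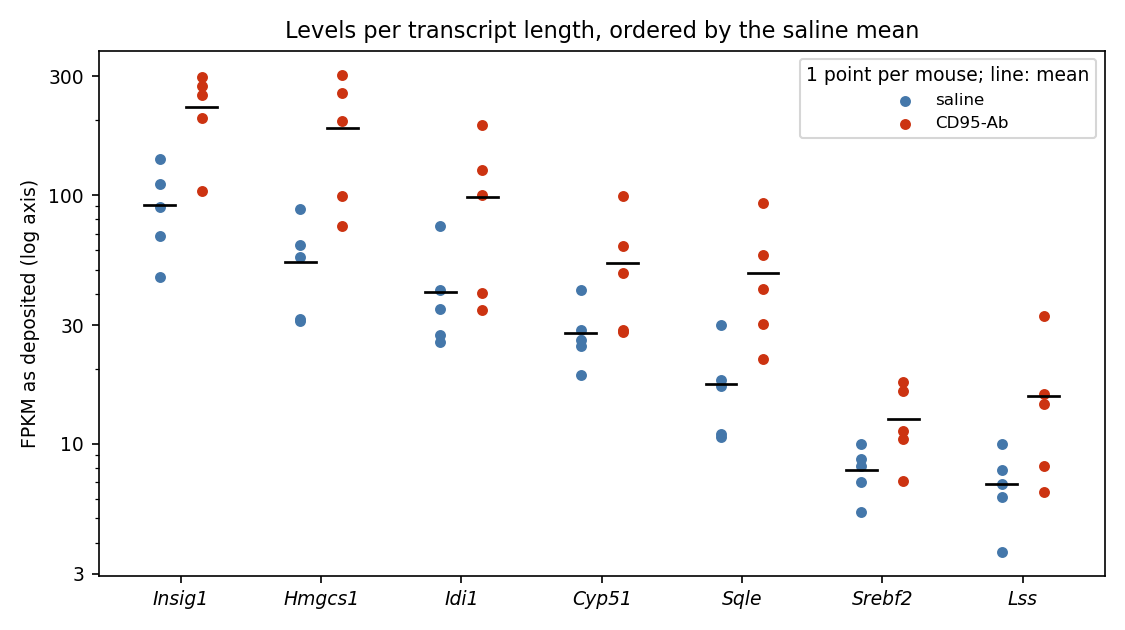
Deposited FPKM (log axis) of the 7 genes in saline and CD95-Ab livers, 1 point per mouse with a line at the mean, ordered by the saline mean. Insig1 and Hmgcs1 are highest in both groups, and Srebf2 and Lss are lowest in both.

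Of 14 further enzymes of the pathway, 5 were called higher and 3 lower, and 6 were not called, with a median log2 fold change of 0.28. Over all tested genes 25.4% were called higher and 22.0% lower, so these counts are near the background. Mvd, the mevalonate diphosphate decarboxylase, rose from 7.58 ± 4.22 to 26.7 ± 13.4 CPM (SD, n = 5 each, log2 1.82, SE 0.42, edgeR FDR 0.00355). Pmvk, the phosphomevalonate kinase that acts just before it, rose by 1.07 on the log2 scale (edgeR FDR 0.00357). Both stand between Hmgcs1 and Idi1 in the pathway. Enzymes of the last steps were among those lower in CD95-Ab livers. Tm7sf2, a sterol reductase, fell by 0.75 and Sc5d, the sterol desaturase, fell by 0.69 on the log2 scale (edgeR FDR 0.0221 and 0.0266). Both calls were lost without CD95-Ab 2, that of Tm7sf2 also without CD95-Ab 5 and that of Sc5d also without saline 2 or 5, which left 1 enzyme called lower without CD95-Ab 2. The count of enzymes called higher was 3 when any of saline 1, 2, 3 or 5 or CD95-Ab 1, 2 or 5 was left out.

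**Figure D5:**
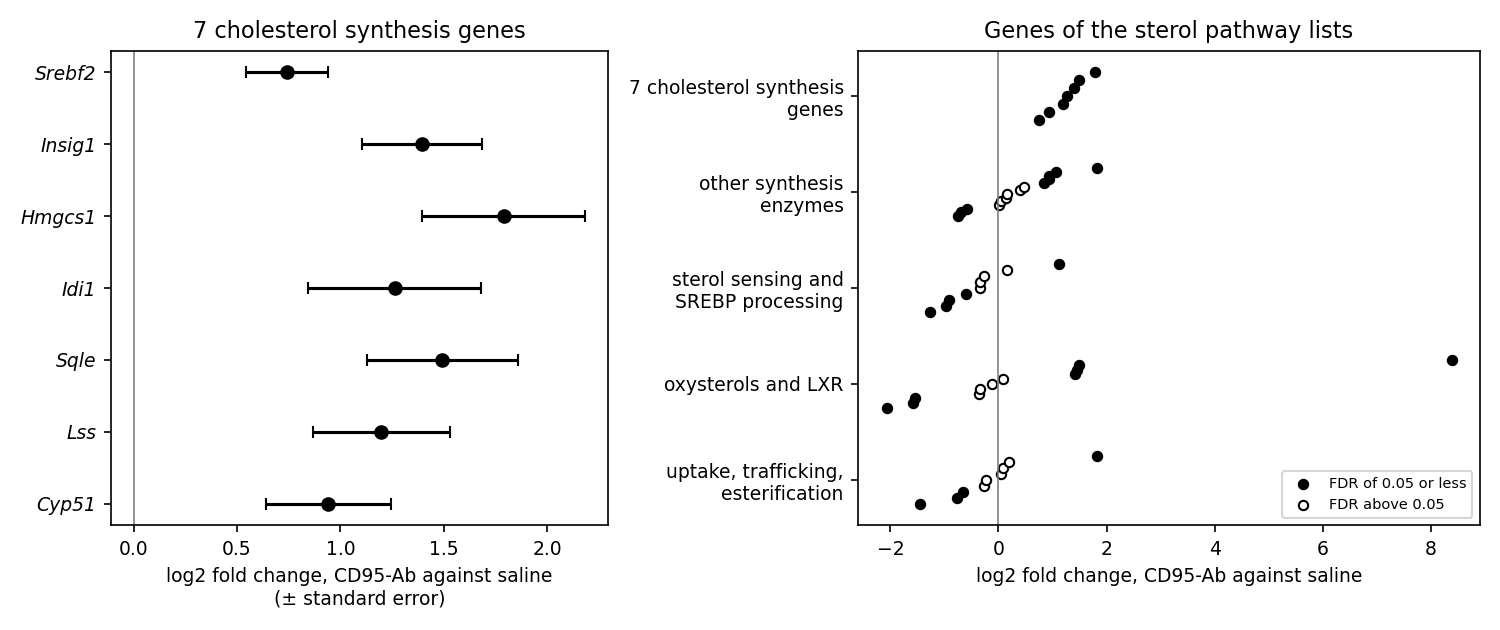
Log2 fold changes (CD95-Ab against saline) of the 7 genes with their standard errors (left), and of each gene in the 7-gene set and in the other sterol lists, 1 point per gene, filled at an FDR of 0.05 or less (right). The 7 genes lie between 0.74 and 1.79, while each other list has called genes on both sides of 0.

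Among 9 genes of sterol sensing and SREBP processing, 1 was called higher and 4 lower, against 25.4% and 22.0% of all tested genes, with a median log2 fold change of -0.35. The gene called higher was Insig2, the paralog of Insig1, at 157 ± 72.6 CPM in saline and 340 ± 145 CPM in CD95-Ab livers (SD, n = 5 each, log2 1.11, SE 0.38, edgeR FDR 0.0310). That call was lost without saline 1 or 2 or CD95-Ab 2, 3 or 5, with an FDR of up to 0.0825. Scap, which encodes the sterol sensor that escorts SREBP2, fell by 0.97 on the log2 scale, from 112 ± 10.8 to 57.5 ± 5.94 CPM (SD, n = 5 each, edgeR FDR 4.44e-05). Srebf1, which encodes the SREBP of fatty acid synthesis, fell by 1.26 on the log2 scale, from 170 ± 68.0 to 70.8 ± 19.0 CPM (SD, n = 5 each, edgeR FDR 0.00305). Srebf2 and Srebf1 thus moved in opposite directions, and so did Srebf2 and Scap. Without saline 5 the count called lower was 7.

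Of 11 genes of oxysterol production and the LXR pathway, 4 were called higher and 3 lower (median log2 fold change -0.11), near the 25.4% and 22.0% of all tested genes. Ch25h, the cholesterol 25-hydroxylase, whose product keeps SREBP2 in the endoplasmic reticulum, went from 0.0968 ± 0.0845 CPM to 35.9 ± 13.6 CPM (SD, n = 5 each, log2 8.39, SE 0.46, edgeR FDR 3.24e-07). No saline library held more than 7 counts of it, so the size of that change is loosely set. The sterol exporter Abcg1 rose by 1.49 (edgeR FDR 0.000417). Abcg8 and Abcg5, the pair that exports sterols into bile, fell by 2.07 and by 1.58 on the log2 scale (edgeR FDR 2.67e-06 and 2.00e-05).

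Of 9 genes of sterol uptake, trafficking and esterification, 1 was called higher and 3 lower (median log2 fold change -0.22), where 25.4% and 22.0% of all tested genes were. Soat1, which esterifies cholesterol, rose from 3.20 ± 1.20 to 11.3 ± 2.55 CPM (SD, n = 5 each, log2 1.83, edgeR FDR 0.000181). Soat2, the other esterifying enzyme of the list, was more abundant in both groups and went the other way. It fell from 32.4 ± 6.95 to 20.5 ± 3.61 CPM (SD, n = 5 each, log2 -0.66, edgeR FDR 0.00676). Npc1, which moves cholesterol out of lysosomes, fell by 1.46 and Lipa, the lysosomal lipase, fell by 0.77 on the log2 scale (edgeR FDR 2.13e-05 and 0.00769).

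Genes with the profile most like the enzymes were ranked by the root-mean-square difference (log2 CPM, 10 mice) from the mean profile of Hmgcs1, Idi1, Sqle, Lss and Cyp51, each gene centered on its own mean. The nearest were Msmo1 (0.216), Hsd17b7 (0.326), Cad (0.354), Pmvk (0.375), Dhcr7 (0.393) and Lrrc59 (0.400), against a median of 0.956 over all tested genes. Srebf2 and Insig1, which did not enter the mean profile, stood at 0.493 and 0.456. Of the 6 nearest, Msmo1, Hsd17b7, Pmvk and Dhcr7 are enzymes of cholesterol synthesis from the list of further enzymes. Cad, which encodes the enzyme that starts pyrimidine synthesis, had 5.86 CPM in saline and 15.1 CPM in CD95-Ab livers, and Lrrc59 had 44.4 and 112 CPM.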

How the data were processed

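Liver RNA of 10 mice was sequenced as paired reads of 100 bases, 1 library per mouse. The authors aligned reads and estimated expected counts and FPKM per gene with RSEM 1.2.19, per the submitters' processing notes and the study's methods. The annotation release and genome build are not clear from the sources used here, so symbols and positions were taken from GENCODE M21 (GRCm38), which matched 37606 of 38922 gene IDs. Preparation is not stated to keep strand, so overlapping genes may share reads.

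The deposited expected counts, rounded to whole numbers, were tested with edgeR 4.0.16 in R 4.3.3 (quasi-likelihood test, TMM factors, filterByExpr with a minimum count of 10, Benjamini-Hochberg adjustment over 13719 genes, FDR of 0.05 or less). CPM were computed with the same factors. Single genes were also compared with an exact permutation test over all 252 splits, two-sided, on log2(CPM + 0.1). The deposited FPKM values, normalized by the authors, were used for levels between genes and, on log2(FPKM + 0.1) and log2(FPKM + 1), as an alternative with limma 3.58.1. The fold changes from FPKM are on that scale, which understates low genes. Other alternatives were RLE, upper-quartile and no factors, other filters, DESeq2 1.42.0, edgeR's likelihood ratio test, limma-voom, a replicate block, each mouse left out, and an FDR of 0.01.

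Counts were simulated for the CD95-Ab against saline comparison (13719 genes). Of genes changed by a log2 fold of 1, 55.2% were recovered, with 89.6% at 2, 97.0% at 3 and 3.01% false calls. Only 67, 67 and 66 genes were changed at these sizes, up and down. In the real comparison 47.3% of tested genes were called, so these rates need not hold there. Replicate libraries differed by more than sampling noise in all 20 pairs within groups (chi-square per degree of freedom 43.0 to 583), so none was counted as a duplicate. The labels call the mice biological replicates.

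The genes and lists were chosen with earlier results of these data known, and the lists are not complete pathways. Named were the 7 genes, the 2 called genes with the largest change in each direction of each sterol list, the most abundant gene of each marker list, and the 6 genes nearest in profile. Some other list genes, such as Soat2 and Trf, are named beside them for contrast. Some genes of the pathway are not reported here. Ch25h is among the genes the study listed as most induced in these livers, so its direction is not independent evidence.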

Additional observations from a re-analysis of the deposited data

Results flagged for a closer look

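In 14 groups of 5 values (7 genes, both groups of mice), 2 held a mouse far from the others by Dixon's criterion, which flags about 1 in 20 groups by chance. Idi1 in saline 4 stood at 222 CPM, and the next highest saline mouse was at 107 CPM and the lowest at 71.8 CPM, so that the gap was 0.765 of the whole range. Insig1 in CD95-Ab 3 stood at 307 CPM, below the next lowest CD95-Ab mouse at 636 CPM and the highest at 725 CPM, a gap of 0.786 of the range. The critical value for 5 samples is 0.71. Without saline 4 the log2 fold change of Idi1 was 1.61, against 1.26 with all mice, and without CD95-Ab 3 that of Insig1 was 1.56 against 1.39. Both calls held without these mice (edgeR). The cause of either value was not tested.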

How the results depend on the processing

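No result changed direction under any alternative, and the median log2 fold change of all genes shifted by -0.0814 to 0.0727 between settings. On deposited FPKM with pseudocounts of 0.1 and 1 (limma), 3 of the 7 genes were called higher in both cases, and calls were lost for Srebf2 (0.63 and 0.58), Idi1 (1.10 and 1.08), Lss (0.99 and 0.90) and Cyp51 (0.81 and 0.79), with FDRs of 0.0619 to 0.0849. At an FDR of 0.01, 4 of the 7 remained called, without Idi1 (1.26), Lss (1.20) and Cyp51 (0.94). At that threshold 3 further enzymes were called higher and 1 lower, 0 genes of SREBP processing were called higher, and 1897 of all genes were called lower, against 3015. Further enzymes called higher numbered 3 on FPKM with either pseudocount and 3 without scaling factors. The cause of these shifts was not tested, beyond the stricter threshold itself.

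Leaving out 1 mouse at a time, the log2 fold change ranged from 0.96 to 1.61 for Idi1 (6 of 10 fits past the threshold no longer) and from 0.68 to 1.12 for Cyp51 (4 of 10). The number of the 7 called was 5 to 7, further enzymes called higher were 3 to 5 and lower 1 to 3, and SREBP processing genes called higher were 0 to 1 and lower 4 to 7.

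The labels do not say that the replicate numbers pair the mice. Deviations of same-numbered mice correlated with r of -0.274 to 0.257 (mean 0.037, 5 pairs). Of 5 saline mice, 2 correlated best with their own number, and so few pairs cannot settle whether mice were paired. With the replicate number as a block, 5 of the 7 genes were called and 5987 genes in all, against 6495. Idi1 had a log2 fold change of 1.20 (FDR 0.0783) and Cyp51 of 0.89 (FDR 0.0695) under the block. Each of the 7 genes had at least 17.7 CPM in every mouse, so their precision was set by the spread between mice.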

Other observations

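Ratios between the 7 genes within a mouse show whether they rose in proportion. The 21 pairs were compared between groups after the data had been seen. None passed after Benjamini-Hochberg adjustment over the 21 pairs, but with so many pairs and 5 mice a group a lone pair cannot pass, so this does not show that the genes rose in proportion. Before adjustment, 5 had an unadjusted exact permutation p of 0.05 or less, two-sided. The ratio of Hmgcs1 to Cyp51 was higher by 0.90 on the log2 scale in CD95-Ab livers, and that of Sqle to Cyp51 by 0.61, each above every saline mouse in 5 of 5 CD95-Ab mice (exact permutation p = 0.00794, the smallest possible, adjusted 0.0833). The ratio of Srebf2 to Hmgcs1 differed by -1.08 (exact permutation p = 0.0317, adjusted 0.167), and in 4 of 5 CD95-Ab mice it was below every saline mouse.

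Mir33, a microRNA gene that lies within Srebf2, held 0 counts in all 10 mice, in libraries that were not prepared for small RNAs.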
